A study of Mus musculus with 12 samples.

Results

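Folate carriers and enzymes of one-carbon metabolism were followed in the choroid plexus of the mouse from mid-gestation to adulthood. The 8 genes were chosen by symbol, with earlier results of these data known. They were the folate receptor gene Folr1, the carrier genes Slc19a1 and Slc46a1, and the enzyme genes Mthfd1, Mthfd2, Shmt1, Shmt2 and Aldh1l1. All 8 were found among the 52459 genes of the table. All 8 also passed the filter on low values, a level of 1 TPM or more in 3 or more libraries, which 17422 genes passed. TPM is a transcript abundance corrected for transcript length and scaled to the same sum in every library, so levels of different genes can be set side by side.

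The tissue came from mice of the B6 strain and was placed in Trizol straight after dissection. The 12 libraries fall into 4 ages with 3 replicates each: embryonic stage E12.5, P0 (birth), P14 (14 days after birth) and A6m, an adult age of 6 months by its label. No genetic change or treatment is labelled for any of these groups. The sex of the animals, the ventricle sampled and any pooling of animals are not given in the sources used here. Bulk tissue was sequenced, so fewer cells of a type and less RNA per cell cannot be told apart.

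The choroid plexus makes cerebrospinal fluid and is the main gate through which folate enters it. Folr1 protein, anchored in the membrane by a lipid, binds 5-methyltetrahydrofolate tightly and carries it across the epithelium. Slc19a1 exchanges reduced folates for organic anions, and Slc46a1 moves folate together with protons. Inside cells folate carries single carbon units. Shmt1 in the cytosol and Shmt2 in mitochondria take these units from serine, Mthfd1 and Mthfd2 interconvert the loaded forms in the same compartments, and Aldh1l1 removes the unit in the cytosol as CO2. The units feed the synthesis of thymidylate, purines and methionine.

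Several features of the libraries touch the values. Of all TPM in E12.5 replicate 1, 16.3% lay in 5 features linked to ribosomal or small RNA, picked after their values were seen, against 0.94% to 3.25% in the other 11 libraries. Xist, a transcript of the inactive X chromosome, stood at 148 to 155 TPM at A6m and at most 0.808 TPM at P0 and P14, where the Y-linked Ddx3y had 80.1 to 117 TPM. Age and this difference therefore cannot be told apart when A6m is set against P0 or P14. The E12.5 libraries were mixed, with 139, 0.389 and 89.5 TPM of Xist and 9.26, 54.4 and 50.9 TPM of Ddx3y, so comparisons with E12.5 hold this difference as well. Of E12.5 only replicate 2 is low in Xist, so a fit kept to it rests on 1 library at that age and cannot part this difference from age. The transthyretin transcript Ttr alone took 1.12% to 2.1% of TPM at E12.5 and 13.7% to 16.9% later. The log2 difference of the median gene was -0.27 into P0, -0.41 into P14, -0.04 into A6m and -0.71 for the whole span. Each difference was therefore also computed after median-of-ratios scaling, which left these medians between -0.01 and 0.01.

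Between E12.5 and P0 the transcripts of Folr1, Slc19a1, Slc46a1, Mthfd1 and Aldh1l1 rose, those of Mthfd2 and Shmt2 fell, and Shmt1 did not pass the test. A gene was called at a limma adjusted p under 0.05 (Benjamini-Hochberg over all tested genes). In this comparison 62.3% of all tested genes were called, 18.6% higher and 43.7% lower, and the median log2 difference of the 8 genes was 1.14. Into P14 Slc46a1, Mthfd1 and Aldh1l1 rose and Slc19a1, Shmt1 and Shmt2 fell, 6 of the 8, where 58.8% of all genes were called (5.33% higher and 53.5% lower) and the median of the 8 was -0.04. Into A6m Aldh1l1 rose and Folr1 fell, 2 of the 8, where 20.9% of all genes were called (8.78% higher and 12.1% lower) and the median of the 8 was 0.01. Over the whole span from E12.5 to A6m 5 rose and 3 fell, where 77.2% of all genes were called (15.2% higher and 62.0% lower), with a median of 1.18. The same 5 rose and 3 fell between E12.5 and P14 (background 75.5%, 13.4% higher and 62.1% lower). Between P0 and A6m 3 rose and 4 fell (background 64.4%, 9.78% higher and 54.6% lower). A limma F-test over the 4 ages called all 8, as it did 85.1% of all genes. The comparisons share libraries, so their counts are not independent.

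After scaling 5 of the 8 rose and 1 fell into P0 (background 60.0%, 29.4% higher and 30.6% lower). Into P14 4 rose and 2 fell (43.1%, 23.3% higher and 19.8% lower), and into A6m 2 rose and 1 fell (29.8%, 15.7% higher and 14.2% lower). The whole span kept 5 rises and 3 falls (71.4%, 36.5% higher and 34.9% lower), as did E12.5 against P14 (67.7%, 34.0% higher and 33.7% lower), and P0 against A6m had 3 of each (background 57.6%, 30.6% higher and 26.9% lower). The libraries of both ages did not overlap for 6 of the 8 genes into P0 (all tested genes 62.7%), 6 into P14 (69.3%), 4 into A6m (44.3%), 8 over the whole span (76.9%), 8 between E12.5 and P14 (75.3%) and 7 between P0 and A6m (73.7%).

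**Figure D1:**
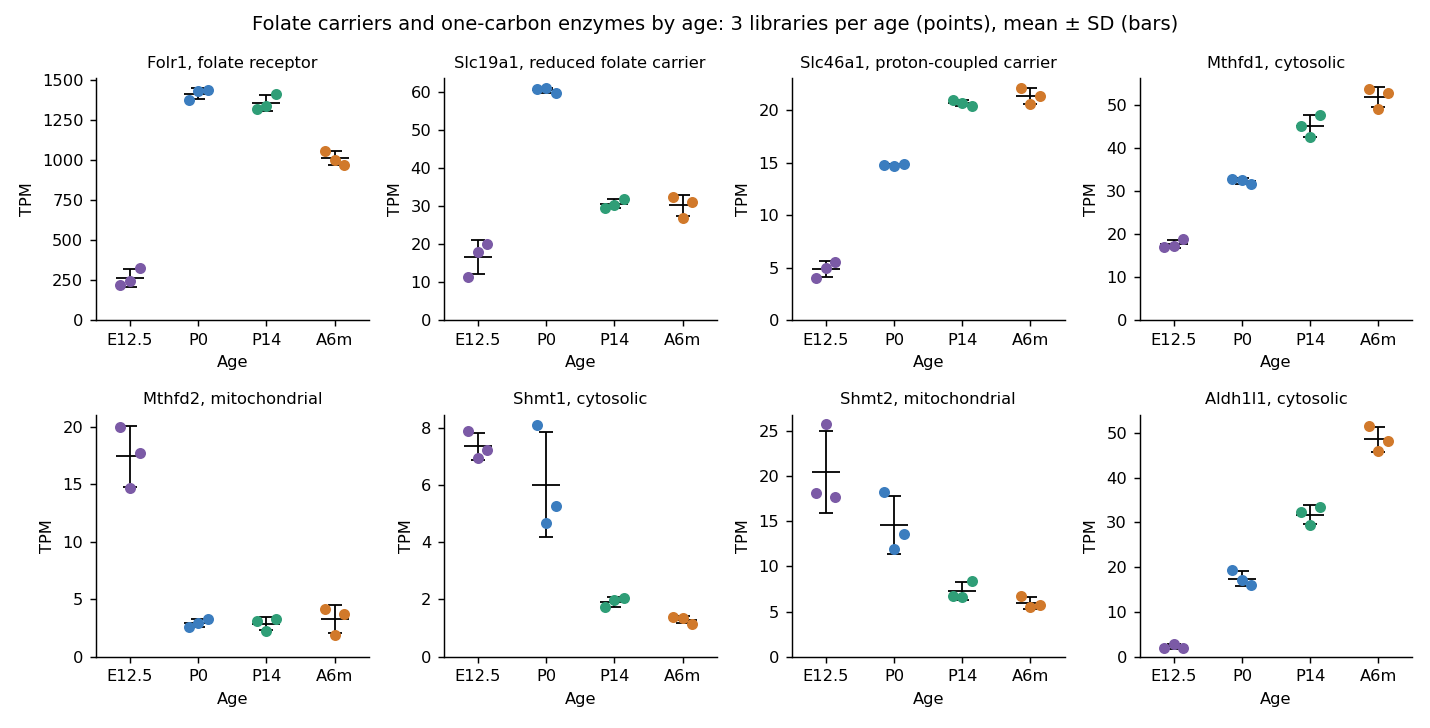
TPM (vertical axes, a separate scale per gene) of the 8 genes in every library by age, with the mean and SD of 3 libraries. Folr1, Slc19a1, Slc46a1, Mthfd1 and Aldh1l1 are lowest at E12.5, and Mthfd2, Shmt1 and Shmt2 have their highest mean there.

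**Figure D2:**
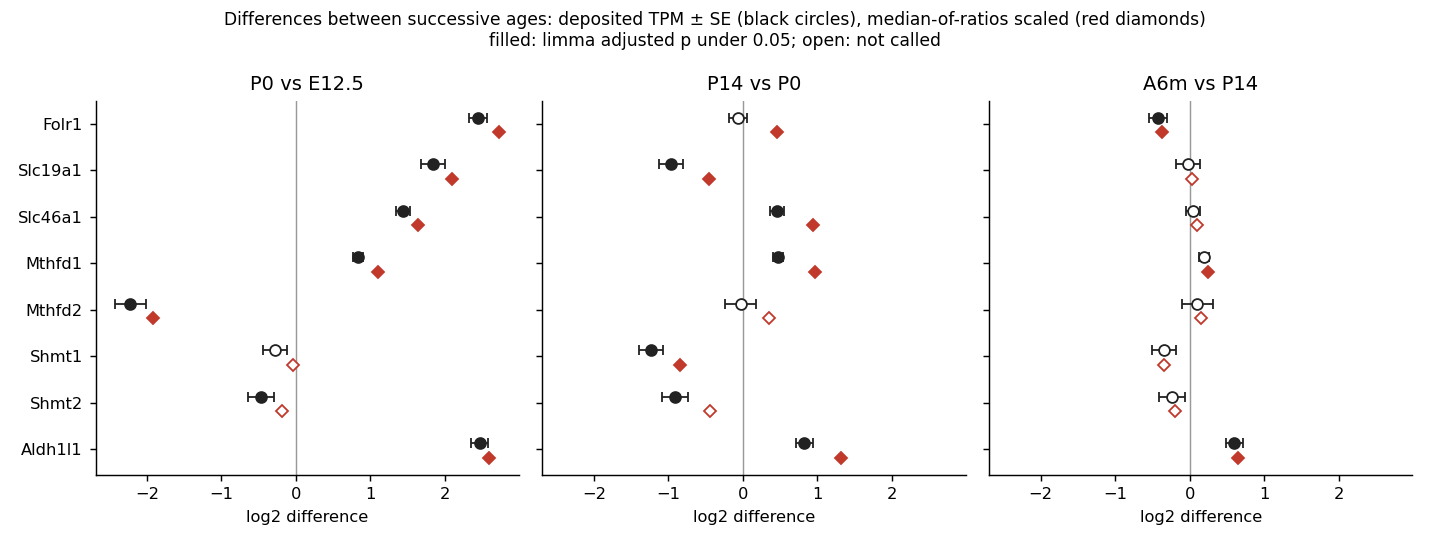
Log2 differences between successive ages for the 8 genes, as deposited and after median-of-ratios scaling, with the limma call marked. Folr1 between P0 and P14 goes from -0.06, not called, to 0.45, called.

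Folr1 was the most abundant of the 8 transcripts at every age. The gene lies on chromosome 7 (101858331 to 101870788, minus strand) in GRCm38, and its paralog Folr2 lies beside it on the same strand. It overlaps Anapc15 of the opposite strand (mean 15.5 TPM), as Shmt1 overlaps Smcr8 and Shmt2 overlaps Ndufa4l2. Folr1 stood at 217, 244 and 324 TPM in the E12.5 libraries, 1376, 1429.7 and 1438 TPM in those of P0, 1319, 1336 and 1416 TPM in those of P14 and 1059, 1002 and 972 TPM in those of A6m. The E12.5 libraries lay below all others, those of P0 and P14 overlapped, and those of A6m lay between. The rise into P0, from 262 ± 55.5 to 1415 ± 33.6 TPM (SD, n = 3), was 2.45 ± 0.12 on the log2(TPM + 1) scale (SE, limma adjusted p = 3.93e-08). The change into P14 (1357 ± 51.8 TPM) was -0.06 as deposited (limma adjusted p = 0.68) and 0.45 after scaling (adjusted p = 0.0015, range over the alternatives 0.0015 to 1). The fall into A6m (1011 ± 44.2 TPM) was -0.42 ± 0.12 (limma adjusted p = 0.0261). That call was lost when any 1 of the 6 P14 and A6m libraries was left out (limma adjusted p 0.0511 to 0.0858), though the libraries of these ages did not overlap. Between P0 and A6m the log2 difference was -0.48 as deposited (limma adjusted p = 0.00402) and 0.08 after scaling (adjusted p = 0.421).

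Markers of the choroid plexus epithelium were set beside Folr1: Ttr, Kcnj13, Otx2, Clic6, Aqp1, Tmem72, Prlr, Kl and Enpp2. Of these 9, 8 rose and 0 fell into P0 (all tested genes 18.6% higher and 43.7% lower). Into P14 4 rose and 3 fell (5.33% and 53.5%), and into A6m 3 rose and 0 fell (8.78% and 12.1%). After scaling the rises and falls were 9 and 0 (29.4% and 30.6%), 4 and 1 (23.3% and 19.8%), and 5 and 1 (15.7% and 14.2%). Their sum was 12444 to 23129 TPM over the E12.5 libraries, 146938 to 148703 TPM over those of P0, 178321 to 193507 TPM over those of P14 and 171726 to 177985 TPM over those of A6m, and none was at 0 at any age. Their part in the Folr1 values was not tested.

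Slc19a1, the reduced folate carrier gene, had its highest level at birth. It lies on chromosome 10 (77032241 to 77061002, plus strand) and overlaps Col18a1 of the opposite strand, whose mean was 77.3 TPM. Of the 31-base words of Slc19a1 transcripts 0.0422% also occur, on either strand, in transcripts of other genes. These genes were Gm48369 and Txndc11, and Col18a1 was not among them. Whether strand was used in quantification is not stated, and the part of the overlap in the Slc19a1 values was not tested. Slc19a1 had 11.4, 17.9 and 20.1 TPM in the E12.5 libraries, 60.6, 60.9 and 59.6 TPM in those of P0, 29.5, 30.2 and 31.8 TPM in those of P14 and 32.4, 26.96 and 31.1 TPM in those of A6m. All P0 libraries lay above all others, and those of P14 and A6m overlapped. The rise into P0 was from 16.5 ± 4.5 to 60.3 ± 0.68 TPM (1.85 ± 0.16, limma adjusted p = 2.42e-06). The fall into P14, to 30.5 ± 1.18 TPM, was -0.96 ± 0.16 (limma adjusted p = 0.00049) and -0.46 after scaling. A6m differed from P14 by -0.02 (limma adjusted p = 0.959) and from E12.5 by 0.86 ± 0.16 (adjusted p = 0.00041).

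Slc46a1, the proton-coupled folate transporter gene, rose into P0 and again into P14. It lies on chromosome 11 (78465697 to 78472059, plus strand). Its levels were 4.03, 4.98 and 5.58 TPM in the E12.5 libraries, 14.8, 14.6 and 14.9 TPM in those of P0, 20.97, 20.7 and 20.4 TPM in those of P14 and 22.1, 20.6 and 21.3 TPM in those of A6m. Only the libraries of P14 and A6m overlapped. The log2 differences were 1.44 ± 0.09 into P0 (limma adjusted p = 2.78e-07), 0.46 ± 0.09 into P14 (adjusted p = 0.0016) and 0.04 ± 0.09 into A6m (adjusted p = 0.811). E12.5 replicate 1, the library rich in ribosomal features, was the lowest of its age for Folr1, Slc19a1, Slc46a1 and Mthfd1. Without it, as under each other alternative run, the rises into P0 of these 4 genes and of Aldh1l1 were called.

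Ratios within a library do not depend on the scaling sum apart from the pseudocount, and 4 were tested. The TPM ratio of Slc19a1 to Folr1 was 0.0627 ± 0.0105 for E12.5, 0.0427 ± 0.00131 for P0, 0.0225 ± 0.000135 for P14 and 0.0298 ± 0.00263 for A6m (SD, n = 3). No age overlapped another. The exact permutation test of the F statistic of the log2 ratio of TPM + 1 gave p = 6.49e-05, the smallest that 369600 assignments of the libraries to the ages allow (adjusted p over 4 ratios = 0.00026). The TPM ratio of Slc46a1 to Folr1 was 0.0187 ± 0.00162, 0.0104 ± 0.000266, 0.0153 ± 0.000755 and 0.0211 ± 0.00073 in the same order of ages (exact permutation p = 0.000519, adjusted p = 0.000952). It was lowest at P0. The E12.5 libraries (0.0172 to 0.0204) lay just below those of A6m (0.0205 to 0.0219) in this ratio, and the libraries of both ages overlapped in the log2 ratio of TPM + 1. In TPM Folr1 exceeded Slc19a1 by 15.9 times at E12.5 and 44.5 times at P14.

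**Figure D3:**
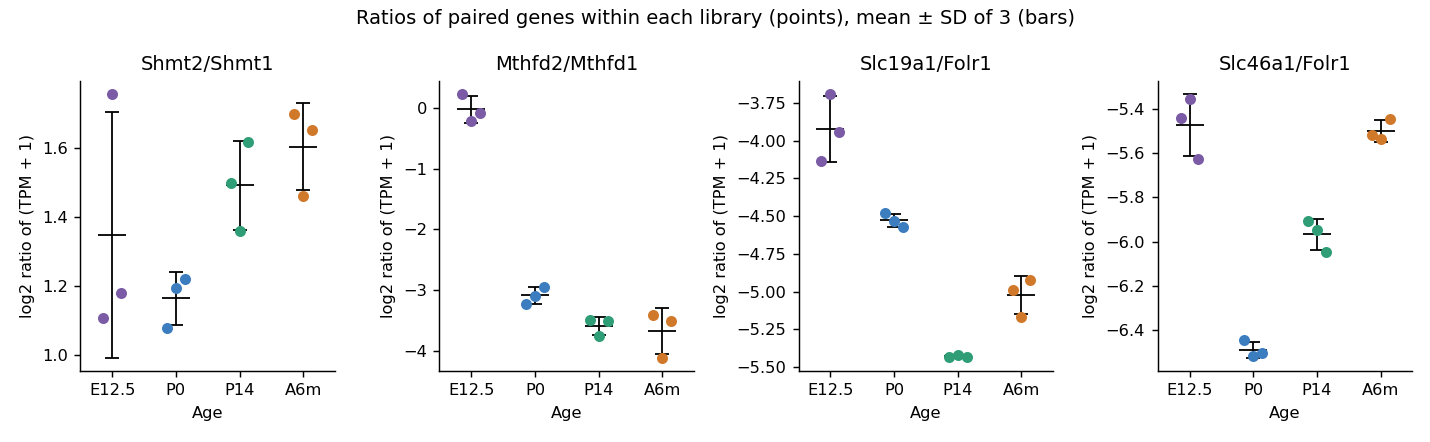
Log2 ratios of TPM + 1 within each library for 4 gene pairs by age, with the mean and SD of 3 libraries. Mthfd2/Mthfd1 is -0.03 on average at E12.5 and -3.09 or lower afterwards.

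Among the enzymes, the cytosolic genes Mthfd1 and Aldh1l1 rose. Mthfd1 encodes the cytosolic enzyme that interconverts the folate forms carrying a carbon unit, and lies on chromosome 12 (76255298 to 76319803, plus strand). Its levels were 16.9, 17.3 and 18.8 TPM in the E12.5 libraries, 32.7, 32.6 and 31.6 TPM in those of P0, 45.2, 42.6 and 47.6 TPM in those of P14 and 53.7, 49.1 and 52.8 TPM in those of A6m. No age overlapped another. The log2 difference was 0.84 ± 0.07 into P0 (limma adjusted p = 1.3e-06) and 0.47 ± 0.07 into P14 (adjusted p = 0.000192). Into A6m it was 0.20 ± 0.07 and did not pass (limma adjusted p = 0.0591), but passed after scaling (0.25, adjusted p = 0.0106, range over the alternatives 0.0106 to 1), and as deposited without E12.5 replicate 1 (adjusted p = 0.0353) or E12.5 replicate 3 (0.0399).

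Aldh1l1, the cytosolic 10-formyltetrahydrofolate dehydrogenase gene, had the largest fold difference of the 8 between E12.5 and A6m. It lies on chromosome 6 (90486427 to 90600203, plus strand), and 11.3% of the 31-base words of its transcripts also occur in transcripts of Gm15756 or Gm45901, which reached at most 0.102 and 0.162 TPM in any library. Its levels were 2.04, 2.96 and 2.03 TPM in the E12.5 libraries, 19.3, 17.1 and 15.97 TPM in those of P0, 32.4, 29.3 and 33.4 TPM in those of P14 and 51.5, 45.9 and 48.1 TPM in those of A6m. No age overlapped another. Between E12.5 and A6m the mean rose 20.7-fold, from 2.34 ± 0.536 to 48.5 ± 2.78 TPM (log2 difference 3.90 ± 0.12, limma adjusted p = 2.89e-10). The steps were 2.47 ± 0.12 (adjusted p = 3.29e-08), 0.83 ± 0.12 (adjusted p = 0.000171) and 0.60 ± 0.12 (adjusted p = 0.004) in the limma fit.

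Aldh1l1 is also a marker of astrocytes, so other astrocyte and radial glia markers were set beside it: Gfap, Aqp4, Slc1a2, Slc1a3, Gja1, Fabp7, Aldoc and Hes5. Of these 8, 3 rose and 5 fell between E12.5 and A6m, where 15.2% of all tested genes were called higher and 62.0% lower. After scaling the marker counts were the same, where 36.5% of all tested genes were called higher and 34.9% lower. Their sum was 231 to 425 TPM over the E12.5 libraries, 139.8 to 256 TPM over those of P0, 41.2 to 95.3 TPM over those of P14 and 41.5 to 45.4 TPM over those of A6m. Gfap went from a mean of 0.277 to 8.21 TPM, Aqp4 from 0.978 to 7.25 TPM and Slc1a3, an astrocyte glutamate transporter gene, from 59.3 to 3.31 TPM. None was at 0 at any age, and their part in the rise of Aldh1l1 was not tested.

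Mthfd2, a mitochondrial dehydrogenase gene known from embryonic and dividing cells, was high at E12.5 and low afterwards. It lies on chromosome 6 (83305691 to 83325908, minus strand). Its levels were 19.9, 14.7 and 17.7 TPM in the E12.5 libraries, 2.61, 2.94 and 3.25 TPM in those of P0, 3.11, 2.24 and 3.3 TPM in those of P14 and 4.14, 1.91 and 3.75 TPM in those of A6m. The E12.5 libraries lay above all others, and the later ages overlapped each other. The fall into P0, from 17.4 ± 2.65 to 2.93 ± 0.321 TPM, was 5.95-fold (log2 difference -2.22 ± 0.21, limma adjusted p = 4.69e-06). The next differences were -0.03 ± 0.21 into P14 (limma adjusted p = 0.925) and 0.10 ± 0.21 into A6m (adjusted p = 0.789).

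Shmt1 and Shmt2, the cytosolic and mitochondrial serine hydroxymethyltransferase genes, fell most between P0 and P14. Shmt1 lies on chromosome 11 (60788104 to 60811718, minus strand) and Shmt2 on chromosome 10 (127517123 to 127522444, minus strand). Of the 31-base words of Shmt1 transcripts 3.9% also occur in those of the overlapping Smcr8, which reached 12 TPM, and its part in the Shmt1 values was not tested. Shmt1 had 7.87, 6.93 and 7.23 TPM in the E12.5 libraries, 8.09, 4.67 and 5.26 TPM in those of P0, 1.73, 1.97 and 2.07 TPM in those of P14 and 1.38, 1.36 and 1.15 TPM in those of A6m. Shmt2 had 18.1, 25.7 and 17.7 TPM in the E12.5 libraries, 18.2, 11.96 and 13.6 TPM in those of P0, 6.72, 6.63 and 8.4 TPM in those of P14 and 6.71, 5.5 and 5.74 TPM in those of A6m. For both genes the libraries of E12.5 and P0 overlapped, P0 replicate 1 was the highest of its age, and all P14 libraries lay below all P0 libraries. The fall into P14 was -1.23 ± 0.16 for Shmt1 (limma adjusted p = 0.000105, and -0.85 after scaling with adjusted p = 0.00331). For Shmt2 it was -0.90 ± 0.17 (limma adjusted p = 0.00127) and did not pass after scaling (-0.44, adjusted p = 0.0669, range over the alternatives 0.000605 to 0.289).

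The earlier step of this pair was unsettled. Shmt2 passed into P0 (log2 difference -0.46 ± 0.17, limma adjusted p = 0.0379), but did not in 10 of 23 alternatives, scaling and limma treat against 1.5-fold among them (scaling -0.19, adjusted p = 0.373, range 0.0102 to 1). Without E12.5 replicate 2 or P0 replicate 2 its limma adjusted p was 0.15 and 0.139, and without P0 replicate 3 the call was lost too. Shmt1 did not pass into P0 (-0.28 ± 0.16, limma adjusted p = 0.145), but did without P0 replicate 1 (-0.49, adjusted p = 0.00544, range over the alternatives 0.00544 to 1). Into A6m Shmt1 did not pass (-0.35 ± 0.16, limma adjusted p = 0.156), but did without P0 replicate 1 (adjusted p = 0.044). From E12.5 to A6m Shmt1 fell 5.67-fold in TPM (limma adjusted p = 8.06e-07) and Shmt2 3.43-fold (adjusted p = 6.18e-06).

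Each mitochondrial enzyme was also set against its cytosolic counterpart within libraries. The TPM ratio of Mthfd2 to Mthfd1 was 0.99 ± 0.169 for E12.5, 0.0908 ± 0.0115 for P0, 0.0635 ± 0.00955 for P14 and 0.0623 ± 0.0206 for A6m (SD, n = 3). The E12.5 libraries lay above all others (exact permutation p = 0.000714, adjusted p over 4 ratios = 0.000952). The TPM ratio of Shmt2 to Shmt1 was 2.82 ± 0.78, 2.47 ± 0.188, 3.77 ± 0.365 and 4.64 ± 0.53 in the same order and did not pass (exact permutation p = 0.147). It did pass with a pseudocount of 0.1 (exact permutation adjusted p = 0.0106), after scaling (0.0367) and without E12.5 replicate 2 (0.00721). In sums chosen after the values were seen, the cytosolic Shmt1, Mthfd1 and Aldh1l1 came to 27.4 ± 0.609 TPM at E12.5 and 102 ± 5.09 TPM at A6m. The mitochondrial Shmt2, Mthfd2, Mthfd2l, Mthfd1l and Aldh1l2 came to 80.9 ± 1.13 and 21.8 ± 2.05 TPM. Within the cytosolic sum Shmt1 fell from 7.34 to 1.3 TPM, while Mthfd1 and Aldh1l1 had 51.9 and 48.5 TPM at A6m. The sums were of TPM as deposited and were not tested.

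RefSeq promoters were given for 7 of the 8 genes, without Folr1. The 250 bases before the RefSeq start (GRCm38.p6) are shown for Mthfd2 (chr6:83317605-83317854, minus strand) and Aldh1l1 (chr6:90550543-90550792, plus strand), which among the 5 enzyme genes had the largest fall and rise from E12.5 to A6m on the log2(TPM + 1) scale, and for Shmt1 (chr11:60811266-60811515, minus strand), whose window held the most matches. They read 5′ to 3′ on the gene's strand, and capitals mark matches on either strand to the CCAAT box (CCAAT), the GC box (GGGCGG) or the E-box (CACGTG).
Mthfd2 promoter: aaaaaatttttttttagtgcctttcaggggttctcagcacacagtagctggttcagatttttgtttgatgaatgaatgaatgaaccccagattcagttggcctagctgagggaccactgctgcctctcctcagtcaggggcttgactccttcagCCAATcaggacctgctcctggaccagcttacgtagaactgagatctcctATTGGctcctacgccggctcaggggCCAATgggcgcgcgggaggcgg
Aldh1l1 promoter: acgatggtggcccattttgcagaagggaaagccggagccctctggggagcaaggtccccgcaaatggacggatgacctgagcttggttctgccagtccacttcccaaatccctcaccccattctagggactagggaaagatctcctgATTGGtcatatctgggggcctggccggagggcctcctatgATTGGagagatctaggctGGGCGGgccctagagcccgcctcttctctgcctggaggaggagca
Shmt1 promoter: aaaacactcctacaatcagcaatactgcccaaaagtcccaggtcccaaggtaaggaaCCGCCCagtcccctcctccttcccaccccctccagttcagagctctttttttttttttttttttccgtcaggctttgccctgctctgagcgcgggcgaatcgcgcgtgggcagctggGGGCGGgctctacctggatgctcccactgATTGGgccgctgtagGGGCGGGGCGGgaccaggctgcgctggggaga
The Mthfd2 window held 3 CCAAT matches and no GC box match. That of Aldh1l1 held 2 CCAAT matches and 1 GC box match, and that of Shmt1 held 1 and 4, of which the last 2 GC boxes overlap by a base. CCAAT letters stood in the windows of Mthfd2 and Shmt1, which fell from E12.5 to A6m, and of Aldh1l1, which rose. Their part in these changes was not tested. Among 32851 windows of the same length 33.8% held CCAAT, 32.7% the GC box and 6.02% the E-box, which no window of these genes held. The NRF1 palindrome was searched as well, matched only the Shmt2 window among these genes, and stood in 0.782% of all windows. The Mthfd2, Aldh1l1 and Shmt1 windows lie inside the gene spans given above, which begin further upstream. Which start the measured transcripts used was not resolved. Matches are letters only, and binding was not measured.

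From low to high mean TPM as deposited the ages ranked E12.5, A6m, P14, P0 for Folr1 and Slc19a1, and E12.5, P0, P14, A6m for Slc46a1, Mthfd1 and Aldh1l1. They ranked A6m, P14, P0, E12.5 for Shmt1 and Shmt2, and P14, P0, A6m, E12.5 for Mthfd2. Of the 24 neighbouring pairs 15 differed by the limma test. Of all tested genes 20.9% (A6m against P14) to 77.2% (A6m against E12.5) were called. After scaling Folr1 was higher at P14 than at P0 (0.45, limma adjusted p = 0.0015), and A6m differed from P0 by 0.08 (adjusted p = 0.421). Scaling also turned P14 against P0 for Mthfd2 (0.36, limma adjusted p = 0.219) and A6m against P14 for Slc19a1 (0.03, adjusted p = 0.847). As deposited, the pairs that did not differ were P14 and P0 for Folr1, P14 and A6m for Slc19a1, Slc46a1, Mthfd1, Shmt1 and Shmt2, P14 and P0 as well as P0 and A6m for Mthfd2, and P0 and E12.5 for Shmt1.

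The rest of the pathway was read from a list of 42 other genes, 39 of which passed the filter. Into P0 10 rose and 19 fell (median log2 difference -0.17), into P14 2 rose and 24 fell (median -0.45), and into A6m 5 rose and 6 fell (median 0.00). Over the whole span 5 rose and 27 fell (median -0.76). After scaling the rises and falls were 13 and 16, 8 and 10, 6 and 6, and 16 and 14. Of all tested genes 18.6% were called higher and 43.7% lower into P0, 5.33% and 53.5% into P14, 8.78% and 12.1% into A6m, and 15.2% and 62.0% over the whole span. After scaling these shares were 29.4% and 30.6%, 23.3% and 19.8%, 15.7% and 14.2%, and 36.5% and 34.9%.

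Among the other carriers and storage enzymes Ggh, whose product trims stored polyglutamate folates, went from 43.7 to 84.2 TPM into P0 (log2 difference 0.93, limma adjusted p = 7.71e-07) and to 138 TPM at P14 (0.71, adjusted p = 1.81e-05). Slc25a32, the mitochondrial folate carrier gene, rose from 6.18 to 13.2 TPM into P0 (0.99, limma adjusted p = 1.41e-05) and from 11.5 to 16.8 TPM into A6m (0.52, adjusted p = 0.00595). Fpgs, whose product adds the polyglutamate tail, fell from 9.13 to 6.32 TPM into P0 (-0.48, limma adjusted p = 0.00325), a call not made after scaling (-0.22, adjusted p = 0.121).

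Folr2, a folate receptor gene known from resident macrophages, passed at no single step. It had 12.9, 20.05 and 25.1 TPM in the E12.5 libraries, 14.4, 25.7 and 16.7 TPM in those of P0, 15.7, 10.5 and 13.8 TPM in those of P14 and 9.002, 9.09 and 8.87 TPM in those of A6m. Its limma adjusted p was 0.945 into P0, 0.132 into P14 and 0.186 into A6m. It fell from E12.5 to A6m (-0.98, limma adjusted p = 0.00347), but not after scaling (-0.18, adjusted p = 0.407). The 9 macrophage markers Csf1r, Cx3cr1, C1qa, C1qb, C1qc, Mrc1, Cd68, Lyve1 and Pf4 summed to 300.4 to 366 TPM over the E12.5 libraries, 129 to 157 TPM over those of P0, 52.1 to 57.3 TPM over those of P14 and 25.04 to 41.5 TPM over those of A6m. From E12.5 to A6m 9 of the 9 fell, also after scaling, where 62.0% of all tested genes were called lower (34.9% after scaling). None of the 9 was at 0, and the part of these markers in the Folr2 values was not tested.

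Tyms and Tk1, of thymidylate supply, fell into P0. Tyms, thymidylate synthase, went from 50.6 to 7.16 TPM (log2 difference -2.71, limma adjusted p = 2.64e-06). Tk1, thymidine kinase, went from 18.5 to 2.28 TPM (-2.58, limma adjusted p = 7.94e-09). Of all tested genes 43.7% were called lower into P0 (30.6% after scaling). The 7 proliferation markers Mki67, Top2a, Birc5, Ccnb1, Cdk1, Rrm2 and Mcm5 also fell, 7 of 7 with and without scaling. Their sum was 807 to 872 TPM over the E12.5 libraries, 103 to 107 TPM over those of P0, 22.8 to 29.5 TPM over those of P14 and 11.4 to 15.2 TPM over those of A6m, with none at 0. Their part in these falls and in that of Mthfd2 was not tested.

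Of the 5 other genes of mitochondrial folate conversion 5 fell between E12.5 and A6m (3 after scaling), where 62.0% of all tested genes were called lower (34.9% after scaling). Mthfd1l, whose product makes formate in mitochondria, went from 8.17 to 3.04 TPM into P0 (log2 difference -1.20, limma adjusted p = 0.000245) and to 0.726 TPM at P14 (-1.20, adjusted p = 0.000404). Mthfd2l, the paralog of Mthfd2, had 33.4 ± 2.75 TPM at E12.5 and 11.8 ± 0.818 TPM at A6m (-1.42, limma adjusted p = 1.64e-07), a higher mean than Mthfd2 at every age. Aldh1l2, the mitochondrial relative of Aldh1l1, went from 1.3 to 0.472 TPM (-0.62, limma adjusted p = 0.0115), a call not made after scaling (adjusted p = 0.239) or without E12.5 replicate 2 (0.0613). Sfxn1, a carrier of serine into mitochondria, fell from 37.4 to 10.1 TPM into P0 (-1.78, limma adjusted p = 8.53e-08) and rose from 7.39 to 17.7 TPM into A6m (1.15, adjusted p = 1.74e-05).

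**Figure D4:**
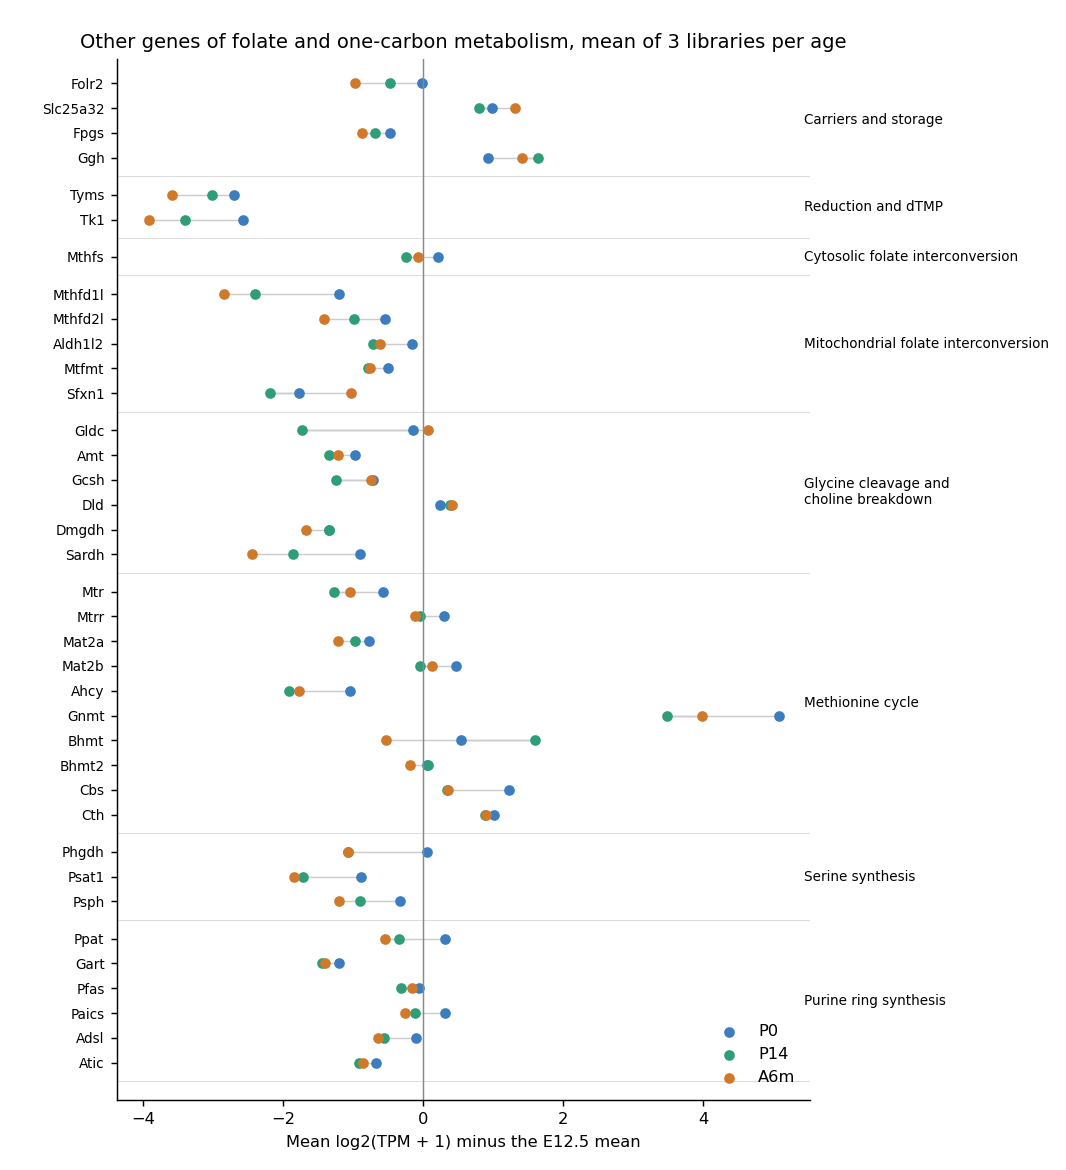
Mean log2(TPM + 1) at P0, P14 and A6m minus the E12.5 mean for 37 genes of the pathway list, grouped by role, with 3 libraries per age. Tyms and Tk1 lie far to the left of 0, and Gnmt far to the right.

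Serine synthesis genes fell between P0 and P14, 3 of 3 (2 after scaling), where 53.5% of all tested genes were called lower (19.8% after scaling). Phgdh, which starts the pathway, was at 82.9 and 86.6 TPM at E12.5 and P0 (limma adjusted p = 0.564) and at 38.7 TPM at P14 (log2 difference -1.14, adjusted p = 4.22e-06). Psat1, the next enzyme, fell from 20.6 to 11.1 TPM (-0.83, limma adjusted p = 0.000652). Psph, the last, went from 5.29 to 4.08 TPM into A6m (-0.31, limma adjusted p = 0.0328), a call lost without any 1 of the P14 or A6m libraries. Gldc, of the glycine cleavage system, was lowest at P14, with 9.84, 13.1 and 10.6 TPM in the P0 libraries, 2.51, 3.45 and 3.15 TPM in those of P14 and 12.1, 11.3 and 16.1 TPM in those of A6m. Its fall was -1.59 (limma adjusted p = 4.08e-05) and its rise 1.80 (adjusted p = 4.86e-05), and neither step had overlapping libraries. Gcsh, of the same system, rose from 15.6 to 22.7 TPM into A6m (0.50, limma adjusted p = 0.00415). Sardh, which breaks down sarcosine, fell from 15.7 to 2.09 TPM between E12.5 and A6m (-2.44, adjusted p = 3.89e-08).

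In the methionine cycle Gnmt, the glycine N-methyltransferase gene, was listed at 0 in 2 E12.5 libraries and at 0.405 TPM in the other. It had 33.2, 40.8 and 37.2 TPM in the P0 libraries, 11.3, 12.7 and 10.6 TPM in those of P14 and 15.6, 18.99 and 15.8 TPM in those of A6m, and fell into P14 (log2 difference -1.60, limma adjusted p = 1.25e-05). Bhmt, which remethylates homocysteine from betaine, rose from 15.2 to 32.5 TPM (1.06, limma adjusted p = 0.000133) and fell to 6.65 TPM at A6m (-2.13, adjusted p = 3.83e-06). Mtr, methionine synthase, which takes the methyl group from folate, fell from 15.2 to 9.77 TPM into P0 (-0.58, limma adjusted p = 0.000423) and to 5.64 TPM at P14 (-0.70, adjusted p = 0.000206). Cth rose from 4.61 to 10.3 TPM into P0 (1.01, limma adjusted p = 1.52e-05), and Cbs, the enzyme before it, from 0.416 to 2.28 TPM (1.22, adjusted p = 0.000238). Gart, of purine synthesis, fell from 23.5 to 9.61 TPM into P0 (-1.20, limma adjusted p = 2.04e-06).

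Profiles most like each of the 8 genes were searched among 10354 genes with a mean of 5 TPM or more, by the root mean square difference of centred log2(TPM + 1) over the 12 libraries. The nearest to Folr1 were Cldn9 (0.14), Ndrg2 (0.16) and Prr32 (0.17), and those to Slc19a1 were Id4 (0.13), Bdh1 (0.14) and Hrasls (0.15). Slc46a1 had Mdh1 (0.08) and Cul4b (0.08) near it, and Mthfd1 had Map1lc3a (0.08), Rnf13 (0.09) and Bcar3 (0.10). Next to Aldh1l1 lay Pfkp (0.17), Tgfa (0.21) and Clu (0.22), and next to Mthfd2 lay Nradd (0.24), Lum (0.24) and Rangap1 (0.26). Shmt1 was nearest to Stom (0.17), Jcad (0.17) and H1f0 (0.18), and Shmt2 to Nsa2 (0.15), Pard6g (0.15) and Ick (0.16). Among the 8 genes themselves the closest pair was Shmt1 and Shmt2 (0.23), then Slc46a1 and Mthfd1 (0.25), and the most distant was Mthfd2 and Aldh1l1 (2.41). With a pseudocount of 5 only 9 of the 24 nearest genes remained among the nearest.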

How the data were processed

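The values are TPM, which the authors deposited as a table for the whole series. Kallisto (no version) and GRCm38 are named in the submitters' processing notes; the annotation and the summing of transcripts per gene are not given in the sources used here. RNA was extracted with Trizol, the library kit was Kapa mRNA HyperPrep, and reads were 100 bp paired, per the labels. Depth is unknown, since TPM holds none, so no counting interval is given. A further 7 columns were not used. The series text calls the specimens independent.

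Values were taken as log2(TPM + 1) after a filter of 1 TPM in 3 libraries, and limma 3.58.1 (R 4.3.3, eBayes with trend) was fitted to the means of the 4 ages over 12 libraries, which leaves 8 residual degrees of freedom. Adjusted p values of genes are limma's. Fold changes on this scale understate those of low genes. Tests were checked on simulated data. Gene positions are from GENCODE M21.

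The 8 genes and all lists were chosen with earlier results of these data known. Named genes were the 8, 16 fixed genes of the pathway list, up to 2 further list genes per comparison and direction with the largest called difference at 5 TPM or more, and the 3 nearest profiles; a few of these are not reported here. Alternatives were pseudocounts of 0.1 and 5, other filters, 3 other scales, only the 2 ages compared, limma treat against 1.5-fold, a replicate block, and each library left out; a fit without E12.5 replicates 1 and 3 was added after seeing the data. Figures used Python 3.11.15 and matplotlib 3.10.9.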

Additional observations from a re-analysis of the deposited data

How the results depend on the processing

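Under every alternative the numbers of the 8 genes called into P0 and over the whole span stayed within 1.5 times of those reported. Shares of all tested genes were computed only for the reported and the scaled fits. Whether the changes in the counts below are particular to these genes was not tested. With limma treat at 1.5-fold 1 of the 8 was called into P14 and 0 into A6m, 12, 5 and 3 genes of the pathway list at the 3 steps, and 6 of the 24 neighbouring levels. With no filter 1 of the 8 was called into A6m; with 1 library left out 1 to 3 were, and 6 to 13 of the pathway list (6 without A6m replicate 3). Without E12.5 replicates 1 and 3 only 1 library stands for E12.5, so the calls of that fit are not listed. A check gave no clear sign that replicate numbers pair the samples, but it cannot exclude pairing. Of 18 same-numbered pairs 1 had deviations correlated above 0.1 (range -0.0778 to 0.108), and 5 of 12 libraries correlated best with their own number. With the replicate number as a block 6, 6, 2 and 8 members were called for the 3 steps and the span. Of 136 named-gene comparisons 3 lost their call: Shmt2 into P0 (-0.46, limma adjusted p = 0.0607), and Ggh (0.0701) and Psph (0.0505) into A6m. Scaling turned the sign of Folr1 (0.455 into P14, 0.0842 from P0 to A6m), of Slc25a32 (0.286), Mthfd2l (0.0354) and Sfxn1 (0.0567) into P14, and of Bhmt (0.23) and Gcsh (0.0837) over the span. Quantile normalization turned Slc25a32 (0.27), Fpgs (0.32) and Sfxn1 (0.089) into P14, and Fpgs (0.0257), Aldh1l2 (0.154) and Bhmt (0.326) over the span. Only differences that passed under the reported or the alternative setting are listed in these sign changes. The A6m minus E12.5 log2 ratio of Shmt2/Shmt1 was 0.255, and 0.674 with a pseudocount of 0.1, 0.396 with scaling and 0.136 to 0.459 with 1 library left out. That of Slc46a1/Folr1 was -0.0276, 0.153 with a pseudocount of 0.1, -0.104 to 0.0318 with 1 library left out and 0.0318 without E12.5 replicate 2. Of the 24 nearest genes 14 remained with a pseudocount of 0.1, 9 with 5, 10 with quantile normalization and 14 to 23 with 1 library left out. The cause was not tested. Of 1098 alternatives for the 8 genes' differences 1039 kept direction and call, and 15 changed sign but passed under neither setting. Of 2000 for the other named genes 1839 kept both, and 36 changed sign but passed under neither setting. A log2 difference cannot change under the other filters, limma treat, the replicate block or only the 2 ages compared. Nor can it when the library left out is of another age, so in these alternatives only the call could move. Depth is unknown.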
